A study of Sus scrofa with 24 samples.

Results

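Expression of 10 genes that supply glycerol 3-phosphate and join fatty acids to it was followed in pig preadipocytes, the fibroblast-like precursors of fat cells, as the cells were driven to store lipid in culture. They were PCK1, PCK2, GPD1, GPD2, the gene that the study names GK, AGPAT2, LPIN1, DGAT1, DGAT2 and GPAM, 10 of the 25462 genes in the deposited table. The genes were chosen by symbol for their place in the pathway, with earlier results of these data known. Preadipocytes of 6-day-old Yorkshire piglets came from back subcutaneous fat (BF) or from tissue of the longissimus dorsi, a back muscle (IMF). The muscle tissue was digested with more collagenase and for longer than the back fat. RNA was taken on days 0, 2, 4 and 8 of adipogenic culture. This gave 8 groups (BF-0d, BF-2d, BF-4d, BF-8d, IMF-0d, IMF-2d, IMF-4d and IMF-8d) of 3 libraries each, 24 in all. Cells of both depots went through the same media, first with IBMX (a phosphodiesterase inhibitor that raises cAMP), dexamethasone (a glucocorticoid) and insulin, then with insulin, then growth medium. Day 0, the start of induction, served as the baseline. The labels do not say which replicates came from separate piglets or cultures, so the p-values below measure only the spread between these libraries.

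Triglyceride is built on glycerol 3-phosphate, and a fat cell can obtain that backbone in several ways. Glycolysis yields dihydroxyacetone phosphate, which the cytosolic dehydrogenase GPD1 reduces to glycerol 3-phosphate, whereas GPD2, on the inner mitochondrial membrane, carries out the reverse oxidation and passes the electrons to the respiratory chain. Glyceroneogenesis makes the backbone from pyruvate or lactate through oxaloacetate and phosphoenolpyruvate, the step of the cytosolic phosphoenolpyruvate carboxykinase PCK1 and its mitochondrial counterpart PCK2. Glycerol kinase phosphorylates free glycerol. Assembly then runs through GPAM, which adds the first acyl chain at the mitochondrial outer membrane, AGPAT2, which adds the second, LPIN1, which removes the phosphate to leave diacylglycerol, and DGAT1 or DGAT2, which add the third chain. White fat is classically described as rich in PCK1 and poor in glycerol kinase, and loss of AGPAT2 causes congenital lipodystrophy.

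In the RefSeq annotation of Sscrofa11.1, the build to which the authors aligned their reads, PCK1 (ENSSSCG00000007507) lies at chr17:57930507-57936523, PCK2 (ENSSSCG00000002009) at chr7:75187195-75197613, GPD1 (ENSSSCG00000000214) at chr5:16008179-16021676 and GPD2 (ENSSSCG00000015872) at chr15:63592723-63728636. LPIN1 (ENSSSCG00000008624) lies at chr3:124940557-125074137, DGAT1 (ENSSSCG00000005918) at chr4:452890-463665, DGAT2 (ENSSSCG00000034102) at chr9:10032163-10066082 and GPAM (ENSSSCG00000010631) at chr14:122538600-122582390. AGPAT2 (ENSSSCG00000040845) is on an unplaced scaffold. The table lists glycerol kinase only as ENSSSCG00000012202, a gene ID without a symbol, and the name GK rests on the study. RefSeq places GK at chrX:26470422-26558892, and the qRT-PCR primers that the study designed for GK fell there. RefSeq lists 10 transcripts of GK. The forward primer matched all 10 without a mismatch and the reverse primer matched 7 with 1 mismatch each, spanning 87 bases of 3 spliced transcripts and 174 bases of 4, and in the other 3 it had no match within 3 mismatches.

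GK-F: acgtggaagaaagccgtgat
GK-R: acgagtcggtattatctatggca

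Promoters are shown for PCK1 and GK, which were called in the results below, and for PCK2, the counterpart of PCK1. Those of GPD2, AGPAT2 and LPIN1, also called, held none of the motifs searched and are not printed. Each runs from 250 bases before to 50 bases after the annotated gene start, 5′ to 3′ on the strand of the gene, from the Sscrofa11.1 sequence. All 10 promoters were searched on both strands for 8 motifs. These were the cAMP response element TGACGTCA (held by 2.17% of 20638 RefSeq promoters of the same length), its variant TTACGTCA (0.674%), an ATF4 element TGATGNAA (3.03%), the nuclear receptor hexamer AGGTCA (14.2%), a C/EBP palindrome TTGNNCAA (5.22%), an E box CACGTG (7.64%), the CCAAT box CCAAT (35.7%) and the TATA box TATAAA (11.6%). Capitals mark the matches.

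PCK1, chr17:57930257-57930556, plus strand: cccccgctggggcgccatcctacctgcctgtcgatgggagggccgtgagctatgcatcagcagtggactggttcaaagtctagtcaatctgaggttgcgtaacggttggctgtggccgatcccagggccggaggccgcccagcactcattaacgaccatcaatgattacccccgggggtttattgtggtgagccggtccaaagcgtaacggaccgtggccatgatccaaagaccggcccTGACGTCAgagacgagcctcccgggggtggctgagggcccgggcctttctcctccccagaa
GK, chrX:26470172-26470471, plus strand: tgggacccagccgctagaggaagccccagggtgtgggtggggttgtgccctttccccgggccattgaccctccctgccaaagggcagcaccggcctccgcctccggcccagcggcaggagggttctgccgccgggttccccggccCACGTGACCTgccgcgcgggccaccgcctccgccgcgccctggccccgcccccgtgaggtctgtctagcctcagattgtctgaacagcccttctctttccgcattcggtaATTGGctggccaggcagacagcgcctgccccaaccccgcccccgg
PCK2, chr7:75197564-75197863, minus strand: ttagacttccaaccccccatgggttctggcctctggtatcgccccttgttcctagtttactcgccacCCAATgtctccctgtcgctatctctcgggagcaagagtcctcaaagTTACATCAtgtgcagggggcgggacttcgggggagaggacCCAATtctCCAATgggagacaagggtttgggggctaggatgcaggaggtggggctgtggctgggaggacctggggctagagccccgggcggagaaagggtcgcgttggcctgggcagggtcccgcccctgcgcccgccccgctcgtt

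The capitals in PCK1 are a full cAMP response element that starts 11 bases before the gene start. In GK they are an E box starting at base -105 that overlaps a hexamer on the opposite strand starting at -101, and a CCAAT box on the opposite strand at position 6, with the first base of the gene counted as 1. In PCK2 they are CCAAT boxes at -183, -97 and -89 and, on the opposite strand, the ATF4 element at -137. Of the other 7 members, GPD1 held a hexamer at -184 and DGAT1 a TATA box on the opposite strand at -222, and the other promoters held none of the 8 motifs. A match is a description of letters and not of a bound site, and a promoter with none says only that these letters are absent from this window.

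Expression was given by the authors as FPKM, a measure of fragments corrected for the length of the transcript and the yield of the library, which allows levels to be compared between genes. The total FPKM of a library was 307967 to 385768, and the table holds no read counts, so the depth behind a value is unknown here. The sequencing yields that the study tabulates were not used. Differences are of log2(FPKM + 1) with their standard error (SE) and the Benjamini-Hochberg adjusted p of limma over 16135 tested genes, and a gene was called at an adjusted p under 0.01 with an absolute difference of at least 1. Of the 10 members 9 were tested, and DGAT2 was too low to be. In BF, 2 libraries stood apart from the others of their group. On the first principal component of all tested genes (52.3% of the variance), BF-2d replicate 3 was at -17.2 against 26.5 and 27.2, toward the BF-0d libraries at -37.7 to -34.2. BF-4d replicate 3 was at 65.1 against 43.1 and 51.0, within the BF-8d range of 62.6 to 65.5. Called results of the 10 genes and of the wider lists in comparisons with BF-2d or BF-4d were also computed without both. This alternative was chosen after seeing the data, because PCK1, PCK2 and GK in these libraries lay apart from their groups. Stronger results of these genes without both libraries are therefore partly a product of that choice.

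The markers of a fat cell were only in part present. Of 9 adipocyte markers 8 were in the table, and ADIPOQ, PLIN1 and LEP reached at most 0.230, 0.0773 and 0.0313 FPKM in any library. Their summed level was 9.16 to 10.9 FPKM in BF-0d, 23.1 to 93.4 in BF-2d, 182 to 318 in BF-4d and 281 to 622 in BF-8d. In IMF it was 2.79 to 3.67 FPKM on day 0, 5.18 to 7.64 on day 2, 11.4 to 14.3 on day 4 and 97.2 to 143 on day 8. On day 8 it was mostly LPL (up to 611 FPKM), the lipase that releases fatty acids from lipoproteins. LPL rose in BF from day 0 to 2 by 3.54 (adjusted p = 1.38e-04) and from day 2 to 4 by 2.54 (adjusted p = 0.00431), and in IMF from day 4 to 8 by 4.21 (adjusted p = 1.82e-05). LPL was at 82.1, 77.7 and 6.71 FPKM in BF-2d, and the low value, of a library that stood apart, enters both BF differences. Its differences of IMF against BF were -3.46 on day 2 and -5.06 on day 4 (adjusted p = 3.05e-04 and 1.36e-06). Other markers of the list moved differently. PPARG, the master regulator of fat cell formation, fell in BF over day 0 to 8 by 1.04 (adjusted p = 0.00610), from a mean of 3.003 FPKM to 0.973, and was at most 1.31 FPKM in any IMF library. CEBPA rose in BF from day 0 to 2 by 1.67 and fell from day 2 to 4 by 1.19, and fell in IMF from day 4 to 8 by 1.33 (adjusted p = 2.31e-05, 0.00129 and 1.93e-04). Its call from day 2 to 4 was lost without both libraries that stood apart (-0.83, adjusted p = 0.0254). FABP4 fell in BF from day 0 to 2 by 1.15 and rose from day 4 to 8 by 1.34 (adjusted p = 0.00101 and 6.30e-04). Of 10 myogenic markers, MYF5 and MYOD1 were listed at 0 in all 24 libraries and the others except desmin (DES) did not pass 0.142 FPKM. DES gave IMF-0d a summed myogenic level of 29.7 to 45.4 FPKM against 4.56 to 4.91 in BF-0d, and 1.38 to 2.25 in IMF-8d against 0.103 to 0.154 in BF-8d, and DES was higher in IMF on days 2 and 4 by 1.25 and 3.61 (adjusted p = 0.00393 and 1.03e-08). Of the immune markers PTPRC reached 0.00835 FPKM and CD3E was listed at 0 throughout. CD14 was at 2.10 to 17.1 FPKM and CD68 at 0.609 to 2.47 FPKM, neither listed at 0 in any library. The summed list (6 genes) spanned 3.15 to 18.8 FPKM in BF-4d, its widest group, where CD14 reached 17.1 FPKM. Of 6 endothelial markers 5 were in the table, with CDH5 at most 0.0884 FPKM and PECAM1 at 0.888 to 5.13, falling in BF from day 0 to 2 by 1.13 (adjusted p = 2.56e-05). The 6 stromal markers in the table summed to 8340 to 9299 FPKM in BF-0d, 2912 to 4381 in BF-4d, 8533 to 8707 in IMF-4d and 4700 to 5247 in IMF-8d. This sum followed COL1A1 (group means of 5753 FPKM in BF-0d and 676 in BF-4d), whereas PDGFRA rose in BF from day 0 to 2 by 1.86 (adjusted p = 1.08e-05) and differed between IMF and BF by -1.41 on day 2 and -1.24 on day 4 (adjusted p = 3.52e-04 and 3.70e-04). The part of these shifts in the results below was not tested.

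PCK1, the cytosolic enzyme of glyceroneogenesis, was at or near 0 in both depots on day 0, was high in BF from day 2 and was high in IMF on day 8 alone. Its level was 0.0322, 0.0582 and 0.115 FPKM in BF-0d and 611, 461 and 24.5 in BF-2d, in the order of replicates 1 to 3. BF-4d held 245, 217 and 54.7 FPKM, and BF-8d held 49.0, 22.4 and 64.3. All 9 BF libraries of days 2 to 8 stood above all BF-0d libraries, and replicate 3 was the lowest library of BF-2d and of BF-4d. IMF libraries held 0, 0.0302 and 0 FPKM on day 0, 0.162, 0.262 and 0 on day 2 and 0.344, 0.136 and 0.229 on day 4. On day 8 the IMF libraries held 64.5, 99.7 and 88.0 FPKM, the lowest of them just above the highest BF-8d library. In 3 IMF libraries PCK1 is listed at 0, which can be a failed estimate, so no linear fold is given.

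PCK1 rose in BF from day 0 to 2 by 7.50 (SE 0.78, adjusted p = 1.08e-06) and in IMF from day 4 to 8 by 6.09 (SE 0.78, adjusted p = 7.77e-06). In IMF the differences from day 0 to 2 and from day 2 to 4 were 0.17 and 0.12 (adjusted p = 0.955 and 1). In BF it was not called from day 2 to 4 (-0.42, adjusted p = 0.752) or from day 4 to 8 (-1.76, SE 0.78, adjusted p = 0.122). Without BF-2d replicate 3 the difference from day 2 to 4 was -1.88 (adjusted p = 0.00814), without BF-4d replicate 3 it was 0.26 (adjusted p = 0.874) and without both -1.20 (adjusted p = 0.0149). That from day 4 to 8 was -2.45 without BF-4d replicate 3, not called (adjusted p = 0.0349), and kept that size with an adjusted p of 2.55e-06 without both libraries. Without BF-2d replicate 3 alone, a library outside that comparison that enters the common spread of the fit, it was -1.76 with an adjusted p of 0.00399. Between the depots, PCK1 was lower in IMF than in BF on day 2 by 7.41 (adjusted p = 1.90e-06) and on day 4 by 6.87 (adjusted p = 1.17e-06), and not called on day 8 (0.98, SE 0.78, adjusted p = 0.352). The change from day 0 to 2 differed between the depots (IMF minus BF -7.33, SE 1.10, adjusted p = 5.47e-04), as did that from day 4 to 8 (7.85, SE 1.10, adjusted p = 7.19e-05). Fitted on BF-0d and BF-2d alone, the day 2 rise had an adjusted p of 0.0113, and the day 2 difference between depots fitted on its own groups had one of 0.0228. Without both libraries that stood apart, the BF rise to day 2 was 8.96, the depot differences of days 2 and 4 were -8.87 and -7.55, and the contrasts of change were -8.79 and 8.54. In bulk RNA fewer cells that make a transcript and less transcript per cell cannot be told apart.

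**Figure D1:**
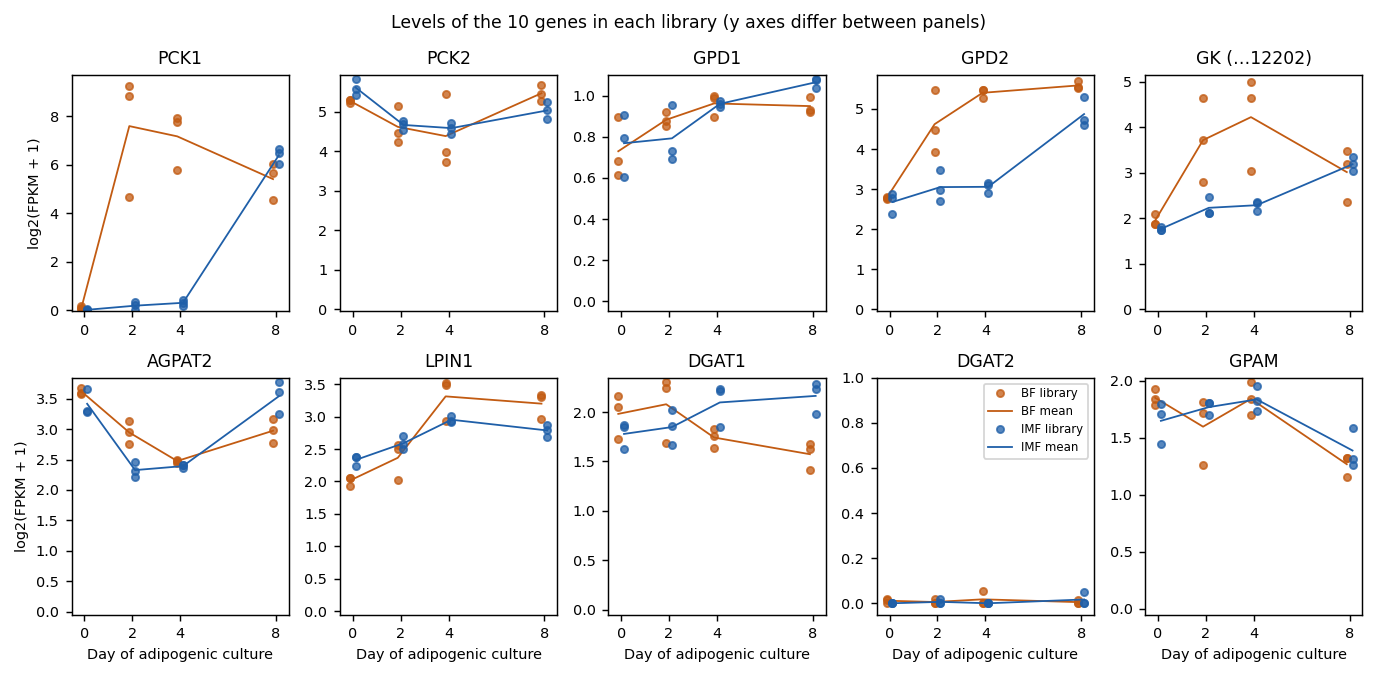
Level of each of the 10 genes as log2(FPKM + 1) against the day of culture, a point for each of the 24 libraries (3 per depot and day) and a line through the group means. PCK1 reached 611 FPKM in BF on day 2 and no more than 0.344 FPKM in IMF before day 8, GPD2 and GK followed with smaller changes, and DGAT2 lay at the bottom of its panel in every library.

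GK, which the classic picture of white fat puts at a low level, was measured in all libraries. It held 2.68, 2.63 and 3.29 FPKM in BF-0d, 23.9, 12.1 and 5.96 in BF-2d, 23.9, 30.9 and 7.17 in BF-4d and 10.1, 4.15 and 8.16 in BF-8d. In IMF it held 2.36, 2.48 and 2.35 FPKM on day 0, 3.32, 4.51 and 3.31 on day 2, 4.14, 3.49 and 4.01 on day 4 and 8.07, 9.18 and 7.15 on day 8. BF libraries of days 2 and 4 did not overlap those of IMF on the same day, whereas the depots overlapped on day 8. The highest group mean, 20.7 FPKM ± 12.2 (SD, n = 3) in BF-4d, was 8.63 times the lowest, 2.39 ± 0.0735 in IMF-0d.

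GK rose in BF from day 0 to 2 by 1.77 (SE 0.40, adjusted p = 0.00227) and was lower in IMF than in BF on day 4 by 1.94 (SE 0.40, adjusted p = 6.53e-04). The first of these calls was lost without BF-0d replicate 2 (adjusted p = 0.0104), without BF-2d replicate 1 (0.0185) or without BF-2d replicate 2 (0.0109), and with only the groups compared in the fit both calls were lost (0.0379 and 0.0208). On day 2 the difference between depots was -1.49 (adjusted p = 0.0107), just outside the threshold. It was -1.95 (adjusted p = 8.30e-04) without BF-2d replicate 3, and a pseudocount of 0.1, the filter at a group mean of 1 FPKM and both other scalings called it (adjusted p = 0.00818, 0.00971, 0.00632 and 0.00802). From day 4 to 8 GK in BF was not called (-1.21, adjusted p = 0.0410), and without BF-4d replicate 3 it fell by 1.80 (adjusted p = 7.25e-04). The IMF difference from day 0 to 8 was 1.42 (SE 0.40, adjusted p = 0.00864), a call that each of the 6 leave-one-out fits lost although the difference stayed between 1.34 and 1.502, and that was also lost without a filter on low values (adjusted p = 0.0164) or without trend and robust (0.0103). The change from day 4 to 8 was not called as different between depots (2.11, SE 0.57, adjusted p = 0.0136). Without BF-4d replicate 3 that contrast was 2.71 (adjusted p = 3.56e-04), and without BF-8d replicate 1 it was 2.34 (adjusted p = 0.00964). Without both libraries that stood apart, the BF rise to day 2 was 2.23 and the depot difference of day 4 was -2.53.

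GPD2, the mitochondrial glycerol phosphate dehydrogenase, rose early in BF and late in IMF. It held 5.76, 5.91 and 5.92 FPKM in BF-0d, 43.5, 21.2 and 14.1 in BF-2d, 37.5, 43.6 and 43.0 in BF-4d and 45.7, 44.9 and 50.7 in BF-8d. IMF held 5.85, 6.38 and 4.19 FPKM on day 0, 6.84, 10.1 and 5.52 on day 2, 7.59, 6.53 and 7.91 on day 4 and 25.4, 38.5 and 23.0 on day 8. The IMF-8d libraries lay above all other IMF libraries and below all BF-8d libraries. The mean of BF-8d, 47.1 FPKM ± 3.13 (SD, n = 3), was 8.61 times that of IMF-0d.

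GPD2 rose in BF from day 0 to 2 by 1.84 (SE 0.27, adjusted p = 3.92e-05) and over days 0 to 8 by 2.81 (adjusted p = 6.04e-08), and in IMF from day 4 to 8 by 1.81 (adjusted p = 3.55e-05) and over days 0 to 8 by 2.19 (adjusted p = 2.81e-06). It was lower in IMF on day 2 by 1.57 (adjusted p = 3.41e-04) and on day 4 by 2.35 (adjusted p = 1.08e-06), and not called on day 8 (-0.72, adjusted p = 0.0447). Fitted on the compared groups alone, the BF rise from day 0 to 2 had an adjusted p of 0.0234 and the day 2 difference between depots one of 0.0730. Without both libraries that stood apart, the rise was 2.194, the depot differences of days 2 and 4 were -1.92 and -2.32 and the contrast from day 4 to 8 was 1.60. The BF change from day 2 to 4 was 0.78 (adjusted p = 0.0405) and, without BF-2d replicate 1, 1.21 (adjusted p = 4.86e-04). From day 4 to 8 the change was larger in IMF than in BF by 1.63 (SE 0.38, adjusted p = 0.00521), a call kept in 5 of 12 leave-one-out fits, in which it ranged from 1.41 to 1.77. It was lost without BF-4d replicate 2, BF-8d replicate 1 or 2, IMF-4d replicate 1, 2 or 3, or IMF-8d replicate 2. The change from day 0 to 2 was not called as different between depots (-1.47, adjusted p = 0.0166), and was -1.82 (adjusted p = 6.17e-04) without BF-2d replicate 3. The contrast from day 2 to 4 was -0.78 (adjusted p = 0.187), and -1.20 (adjusted p = 0.00761) without BF-2d replicate 1.

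GPD1, the cytosolic partner that makes glycerol 3-phosphate from the glycolytic intermediate, stayed low. Its level ran from 0.522 to 1.11 FPKM over the 24 libraries, with the lowest group mean in BF-0d (0.665 ± 0.173) and the highest in IMF-8d (1.09 ± 0.0320, SD, n = 3). No comparison of GPD1 was called, the largest difference being 0.30 (SE 0.09, adjusted p = 0.0147) in IMF from day 0 to 8, where the libraries of the groups did not overlap. The lowest group mean of GPD2 was 5.47 FPKM (IMF-0d) and the highest of GPD1 was 1.09, so that of the pair of dehydrogenases the mitochondrial one had the higher FPKM in every group.

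PCK2, the mitochondrial carboxykinase, had the highest level of the 5 supply genes on day 0. It held 38.4, 36.5 and 38.1 FPKM in BF-0d, 17.9, 21.0 and 34.3 in BF-2d, 12.3, 14.7 and 42.5 in BF-4d and 37.6, 50.4 and 42.2 in BF-8d. In IMF it held 46.5, 42.0 and 55.9 FPKM on day 0, 24.5, 22.3 and 26.3 on day 2, 23.0, 25.3 and 20.7 on day 4 and 31.7, 27.2 and 36.7 on day 8. In both depots the libraries of day 2 lay below those of day 0, and BF-4d spanned from the lowest PCK2 value of the series to one within the BF-8d range. None of the PCK2 differences was called. That of IMF from day 0 to 2 was -0.95 (SE 0.30, adjusted p = 0.0547) and that of BF from day 4 to 8 was 1.08 (SE 0.30, adjusted p = 0.0144). Without BF-4d replicate 3 the latter was 1.61 (adjusted p = 8.27e-06) and the contrast of depots from day 4 to 8 was -1.17 (adjusted p = 0.00402) in place of -0.64 (adjusted p = 0.325). Median ratio scaling and quantile normalization called the BF difference as well (1.22 and 1.09, adjusted p = 0.00727 and 0.00912).

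The 2 BF libraries that stood apart were left out in the alternative because of their PCK1, PCK2 and GK values. Those values, given here, are thus no separate support for setting these libraries apart. In BF-2d replicate 3, with a first principal component between day 0 and the other day 2 libraries, PCK1 (24.5 FPKM), GK (5.96) and GPD2 (14.1) were the lowest and PCK2 (34.3) the highest of the group. BF-4d replicate 3, placed among the day 8 libraries, had PCK1 at 54.7 FPKM, GK at 7.17 and PCK2 at 42.5, each within the range of BF-8d, while its GPD2 of 43.0 FPKM was between those of the other BF-4d libraries. Over all 24 libraries the correlation of log2(FPKM + 1) was 0.90 between PCK1 and GPD2, 0.90 between PCK1 and GK and 0.81 between GPD2 and GK, against -0.65 between PCK2 and GK and -0.35 between PCK1 and PCK2. These are descriptions, since the libraries share depots, days and the differences between groups.

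**Figure D2:**
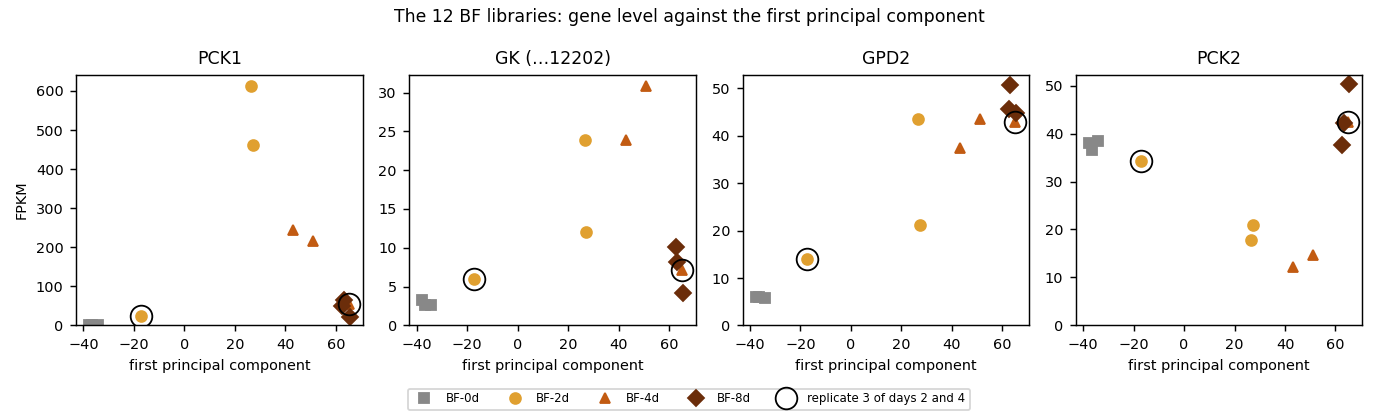
FPKM of PCK1, GK, GPD2 and PCK2 in the 12 BF libraries against the first principal component of all tested genes, with the day given by shape and colour and replicate 3 of days 2 and 4 circled. PCK1 and GK were high in the middle of the axis and PCK2 low there, and the circled libraries lay toward day 0 (-17.2) and among the day 8 libraries (65.1).

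AGPAT2, which adds the second acyl chain, dipped in both depots and returned to the level of day 0 in IMF. It held 8.72 to 11.7 FPKM in IMF-0d (mean 9.77 ± 1.68, SD, n = 3), 3.63 to 4.50 in IMF-2d (4.03 ± 0.440), 4.12 to 4.33 in IMF-4d (4.25 ± 0.118) and 8.47 to 12.6 in IMF-8d (10.8 ± 2.11). AGPAT2 fell in IMF from day 0 to 2 by 1.09 (SE 0.14, adjusted p = 5.12e-05) and rose from day 4 to 8 by 1.15 (SE 0.14, adjusted p = 3.06e-06). Without IMF-0d replicate 3 the first was -0.97 (adjusted p = 5.69e-04), under the size needed for a call. In BF the means were 11.3 ± 0.461, 6.75 ± 1.02, 4.56 ± 0.0964 and 6.91 ± 1.10 FPKM on days 0, 2, 4 and 8. BF-0d libraries (11.0 to 11.8 FPKM) lay above all others of that depot, and those of BF-4d (4.46 to 4.66 FPKM) below all others. No comparison of BF day 0 with day 4 was fitted. The BF differences of -0.68 from day 0 to 2 (adjusted p = 9.07e-04) and -0.65 from day 0 to 8 (adjusted p = 6.41e-04) were also below that size. On day 8 the IMF libraries (8.47 to 12.6 FPKM) did not overlap those of BF (5.79 to 7.99), a difference of 0.57 (SE 0.14, adjusted p = 0.00323), again too small to be called, as was the depot contrast of the change over days 0 to 8 (0.77, SE 0.20, adjusted p = 0.00936). The means of DES in IMF were 37.0, 3.85, 11.7 and 1.68 FPKM on days 0, 2, 4 and 8. DES thus fell with AGPAT2 in the first interval, rose from day 2 to 4 and fell in the last, where AGPAT2 rose. A relation between them was not tested.

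GPAM, the mitochondrial enzyme of the first acylation, was low and varied little. Its libraries ran from 1.23 to 2.95 FPKM, and the highest group mean (2.60 ± 0.184 in BF-0d) was 1.85 times the lowest (1.41 ± 0.153 in BF-8d, SD, n = 3). The difference of BF from day 4 to 8 was -0.57 (SE 0.13, adjusted p = 0.00524) and that from day 0 to 8 was -0.58 (adjusted p = 0.00121), each with libraries that did not overlap and each under the size of a call. In IMF the difference from day 4 to 8 was -0.45 (adjusted p = 0.0133). In both depots the GPAM mean of day 8 was thus the lowest of its course, on the same day on which PCK1 and GPD2 were high in both.

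LPIN1, the phosphatidate phosphatase that also acts as a transcriptional coregulator, rose in BF. It held 2.82 to 3.15 FPKM in BF-0d (3.04 ± 0.190), 3.07 to 4.93 in BF-2d (4.22 ± 1.0), 6.62 to 10.5 in BF-4d (9.09 ± 2.15) and 6.81 to 9.08 in BF-8d (8.24 ± 1.25, SD, n = 3). All libraries of BF-4d and BF-8d exceeded all of BF-0d and BF-2d, and the rise over days 0 to 8 was 1.19 (SE 0.15, adjusted p = 2.08e-06). The difference from day 2 to 4, 0.95 (SE 0.15, adjusted p = 2.34e-04), was under the size of a call. It passed that size without BF-2d replicate 1 (1.01, adjusted p = 2.42e-04), without BF-2d replicate 3 (1.05, adjusted p = 3.53e-04) or without BF-4d replicate 1 (1.14, adjusted p = 2.33e-05). In IMF the group means of days 0, 2, 4 and 8 were 4.04 ± 0.267, 5.03 ± 0.437, 6.74 ± 0.275 and 5.91 ± 0.437 FPKM. The IMF difference over days 0 to 8 was 0.45 (adjusted p = 0.0223), and the depot contrast of that change was -0.73 (SE 0.21, adjusted p = 0.0215), neither of them called.

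Of the enzymes of the last step, DGAT1 was measured in every library and DGAT2 hardly at all. DGAT2 was listed at 0 in 17 of the 24 libraries and reached 0.0369 FPKM at most, so it was not tested, and this holds for both depots and all 4 days. DGAT1 ran from 1.67 to 3.94 FPKM and made up 98.6 to 100% of the summed FPKM of the pair. Its group means were 2.98 ± 0.594, 3.30 ± 0.942, 2.35 ± 0.223 and 1.98 ± 0.278 FPKM in BF and 2.44 ± 0.317, 2.62 ± 0.448, 3.31 ± 0.609 and 3.50 ± 0.492 in IMF on days 0, 2, 4 and 8 (SD, n = 3). On day 8 the libraries of IMF (2.94 to 3.85 FPKM) lay above those of BF (1.67 to 2.20), a difference of 0.59 (SE 0.16, adjusted p = 0.00700) that was under the size of a call. The depot contrast of the change over days 0 to 8 was 0.79 (SE 0.23, adjusted p = 0.0194), not called.

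Ordered by group mean, PCK1 ran from BF-2d through BF-4d, IMF-8d and BF-8d to groups all under 0.3 FPKM, and BF-2d, BF-4d and IMF-8d overlapped in their libraries as neighbours in that order. GK ran from BF-4d through BF-2d, IMF-8d and BF-8d, each overlapping the next, to IMF-4d, which did not overlap BF-8d. GPD2 ran from BF-8d through BF-4d, IMF-8d and BF-2d, where only BF-8d and BF-4d did not overlap, to IMF-2d, which lay apart below BF-2d. PCK2, DGAT1 and GPAM overlapped between every pair of neighbours in their order. LPIN1 was highest in BF-4d and BF-8d and lowest in BF-0d, and AGPAT2 highest in BF-0d, IMF-8d and IMF-0d and lowest in IMF-2d. The order of the genes among themselves depended on the summary. PCK1 had the highest mean over the 24 libraries (83.5 FPKM, against 32.0 for PCK2 and 21.2 for GPD2), but by the median PCK2 (33.0 FPKM) stood above GPD2 (12.1) and PCK1 (11.4). AGPAT2, LPIN1, GK, DGAT1, GPAM and GPD1 had medians of 6.84, 5.47, 4.33, 2.61, 2.30 and 0.895 FPKM.

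Counted over the 9 tested members, PCK1, GPD2 and GK were called between BF-0d and BF-2d, all higher, where 6.59% of all tested genes were called and 2.71% called higher. Between BF-2d and BF-4d and between BF-4d and BF-8d limma called 0 members (4 and 5 at an unadjusted p under 0.05), against 3.35% and 2.93% of all genes. Over BF day 0 to 8 PCK1 (5.31, adjusted p = 1.43e-05), GPD2 and LPIN1 were called higher, against 13.7% of genes called and 6.28% called higher. In IMF 1 member, AGPAT2, was called from day 0 to 2, against 0.787% of genes called and 0.459% called lower, and 0 from day 2 to 4 (1 at an unadjusted p under 0.05), against 0.0372%. PCK1, GPD2 and AGPAT2 were called higher from day 4 to 8 (7.25% of genes called, 4.16% higher), and PCK1 (6.37, adjusted p = 3.19e-06), GPD2 and GK over day 0 to 8 (9.04% called, 4.56% higher). The median difference of the 9 members was 0.15 in BF from day 0 to 2 and 0.45 in IMF from day 4 to 8, against -0.04 and -0.07 over all tested genes.

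Between depots limma called 0 members on day 0 (1 at an unadjusted p under 0.05), where 2.58% of genes were called, and 0 on day 8 (4 at an unadjusted p under 0.05), where 6.96% were. On day 2 PCK1 and GPD2 were called, both lower in IMF (4.74% of genes called, 2.02% lower), and on day 4 PCK1, GPD2 and GK, all lower in IMF (11.3% called, 4.72% lower). Of the contrasts of change between depots, that from day 0 to 2 was called for PCK1 (2.45% of genes called, 1.21% lower) and that from day 4 to 8 for PCK1 and GPD2 (6.39% called, 3.81% higher). The contrasts from day 2 to 4 and from day 0 to 8 were called for 0 members (3 and 3 at an unadjusted p under 0.05), against 3.06% and 4.98% of genes. The comparisons of a depot share groups with each other, so their calls are not independent.

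**Figure D3:**
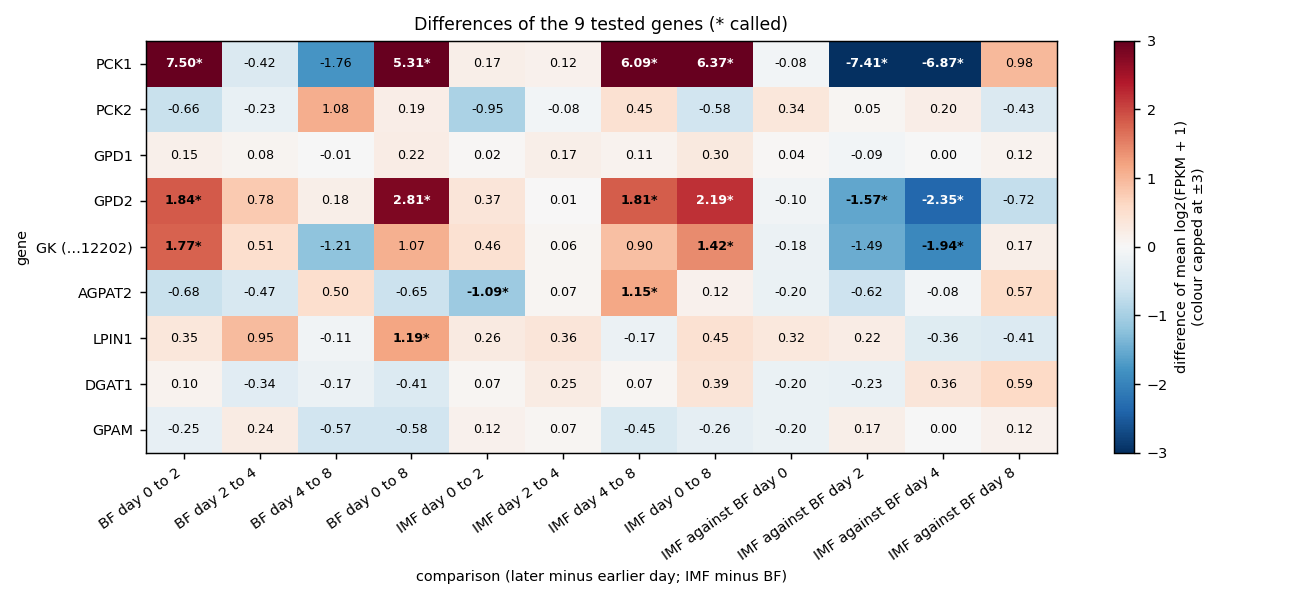
Difference of mean log2(FPKM + 1) of the 9 tested genes in the 12 comparisons between groups (later minus earlier day, IMF minus BF), red for higher and blue for lower with the colour capped at 3, and an asterisk on each called value. PCK1 and GPD2 carry asterisks at BF day 0 to 2, IMF day 4 to 8 and both depot comparisons of days 2 and 4, whereas GPD1, DGAT1, GPAM and PCK2 carry none.

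Each step of the pathway has further isoenzymes, and in these cells several members were the minor form. Grouping by step was made after the values had been seen and is a description. GPAT4, the acyltransferase of the endoplasmic reticulum, held 31.8 to 55.0 FPKM and 74.1 to 95.4% of the summed FPKM of GPAM, GPAT3 and GPAT4, and GPAM held 2.56 to 6.73%. AGPAT1 held 39.6 to 55.5% of the sum over AGPAT1 to AGPAT5 and AGPAT2 held 6.07 to 15.9%. Among the lipins, LPIN2 held 39.9 to 66.6%, and the share of LPIN1 was 19.5 to 22.5% in BF-0d and 33.9 to 51.2% in BF-4d. PCK1 held 0.0839 to 0.302% of the FPKM of the 2 carboxykinases in BF-0d, 97.2, 95.6 and 41.6% in BF-2d, 95.2, 93.7 and 56.3% in BF-4d (replicates 1 to 3) and 30.8 to 60.4% in BF-8d. The low value of BF-2d and of BF-4d was in each case replicate 3, a library that stood apart. In IMF the PCK1 share was at most 1.47% up to day 4 and 67.1 to 78.6% on day 8. GPD1L, a relative of GPD1, had 0.961 to 2.76 FPKM, 51.4 to 83.9% of the pair.

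**Figure D4:**
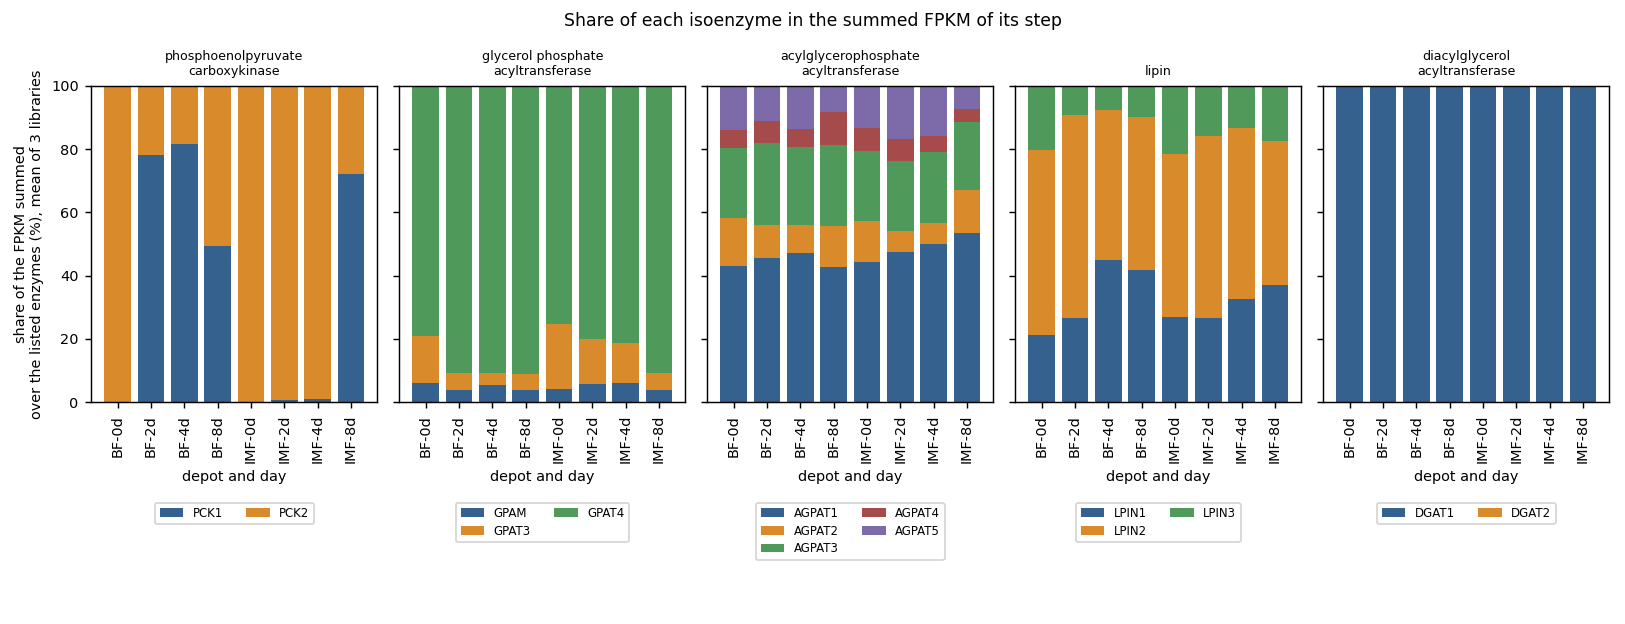
Share in percent of each isoenzyme in the summed FPKM of its step, as stacked bars of the mean of 3 libraries for each depot and day. The mean share of PCK1 was 78.1% in BF-2d (with replicate 3 at 41.6%) and 72.1% in IMF-8d, GPAT4, AGPAT1 and LPIN2 had the largest mean share of their steps in all 8 groups, and DGAT1 made up nearly all of the last.

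The wider pathway was read from 4 lists. Of their 31 calls in comparisons with BF-2d or BF-4d, 27 stayed without the 2 libraries that stood apart, 4 were lost, 0 changed sign and 17 were added. The share of all tested genes called in that fit is not given, so the added calls are not read as particular to the lists. Of 17 acyltransferase, lipin, dehydrogenase and kinase paralogues 11 were in the table and tested. In BF from day 0 to 2, 1 of the 11 was called, near the 6.59% of all tested genes. It was GPAT3, which fell by 1.21 (adjusted p = 0.00249). Its BF-2d libraries held 1.27, 1.11 and 5.87 FPKM, replicate 3 lying within the BF-0d range of 5.42 to 8.34, and without both libraries that stood apart the fall was 1.76 (adjusted p = 3.23e-08). LCLAT1, a lysocardiolipin acyltransferase, rose from day 2 to 4 by 1.09 (adjusted p = 5.66e-04), a call lost without those libraries (0.81, adjusted p = 0.0134). Over BF day 0 to 8 LCLAT1 rose by 1.36, and GPAT3 and AGPAT5 fell by 1.32 and 1.02 (adjusted p = 7.69e-06, 5.90e-04 and 1.18e-05). In IMF LCLAT1 rose from day 4 to 8 by 1.71 (adjusted p = 1.42e-06) and over day 0 to 8 by 1.65, while GPAT3 fell over day 0 to 8 by 1.80 (adjusted p = 3.99e-05). GPAT3 was higher in IMF on days 2 and 4 by 1.15 and 1.23 (1.70 and 1.20 without both libraries), and LCLAT1 lower on day 4 by 1.54 (adjusted p = 2.89e-06). LCLAT1 held 18.9 FPKM in BF-4d and 5.79 in IMF-4d, then 17.0 and 21.5 on day 8, a change from day 4 to 8 that differed between depots by 1.86 (SE 0.27, adjusted p = 9.36e-05).

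Of 16 genes of glycerol transport and of the supply of glyceroneogenesis 13 were tested. In BF from day 0 to 2, 3 were called, all higher (2.71% of all tested genes), and in IMF from day 4 to 8, 3 were called higher (4.16%) and 1 lower. Of the glycerol channels of the list AQP3 alone was tested, with group means of 0.0341 to 0.629 FPKM and no call. AQP9 and AQP10 were too low to be tested, and AQP7, the channel of fat cells, was not analysed here. The glycolytic enzymes that make and interconvert triose phosphates were called, with TPI1 (1.46, adjusted p = 1.41e-04), ALDOA (1.44, adjusted p = 0.00116) and ALDOC (1.11, adjusted p = 6.68e-04) rising in BF from day 0 to 2. Without both libraries that stood apart these rises were 1.91, 1.93 and 1.17. TPI1 and ALDOA rose in IMF from day 4 to 8, by 1.61 and 2.16 (adjusted p = 4.20e-05 and 1.82e-05). ALDOA and TPI1 were higher on BF day 8 than day 0 by 2.10 and 1.26, and ALDOA on IMF day 8 by 1.25. Both were lower in IMF on day 2 (by 1.40 and 1.10) and on day 4 (by 1.55 and 1.11), and their changes and that of ALDOC differed between depots from day 0 to 2 (ALDOA -2.39, TPI1 -2.06 and ALDOC -1.45, adjusted p = 0.00178, 0.00108 and 0.00572). From day 4 to 8 the contrasts had the opposite sign (TPI1 1.73 and ALDOA 1.69, adjusted p = 0.00143 and 0.00897). PC, the pyruvate carboxylase that feeds oxaloacetate to the carboxykinases, fell in IMF from day 4 to 8 by 1.25 (SE 0.14, adjusted p = 1.47e-06), from a mean of 15.1 FPKM to 5.83, in the interval in which PCK1 rose. PDK4, which restrains pyruvate dehydrogenase, was lower in IMF on day 4 by 1.97 (adjusted p = 1.08e-04) and fell in BF from day 4 to 8 by 1.34 (adjusted p = 0.00919). Its BF-4d libraries held 3.65, 6.83 and 0.783 FPKM, replicate 3 lying within the BF-8d range of 0.338 to 0.944, and without both libraries that stood apart these differences were -2.55 and -1.93 (adjusted p = 7.71e-10 and 1.34e-07).

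Of 11 genes of lipid droplet packaging and lipin control 8 were tested. PLIN2, which coats lipid droplets, was the 1 called in BF from day 0 to 2, from day 2 to 4 and over day 0 to 8, where 6.59%, 3.35% and 13.7% of all tested genes were called, so that the count stood near those shares. PLIN2 rose in BF from day 0 to 2 by 1.85 (adjusted p = 7.27e-06), from day 2 to 4 by 1.19 (adjusted p = 0.00127) and over day 0 to 8 by 3.01 (adjusted p = 3.52e-09). Without both libraries that stood apart the first was 2.18 and the second was 0.67 and no longer called (adjusted p = 0.0305). Its group means were 18.6, 72.9, 162 and 164 FPKM in BF and 23.8, 29.4, 23.6 and 24.3 in IMF. PLIN2 was lower in IMF on days 2, 4 and 8 by 1.21, 2.70 and 2.64, and the change over days 0 to 8 differed between depots by -2.98 (SE 0.33, adjusted p = 3.91e-06). The contrasts from day 0 to 2 and from day 2 to 4 were -1.55 and -1.49 (adjusted p = 0.00526 and 0.00635), the latter not called without both libraries that stood apart (-0.97, adjusted p = 0.0216). PCK1 and GPD2 were not called as different in their change over days 0 to 8 (1.06 and -0.61, adjusted p = 0.553 and 0.291).

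Of 19 genes of the phospholipid branch 17 were tested, and 1 was called in BF from day 0 to 2 (6.59% of all tested genes) and 3 in IMF from day 4 to 8 (7.25%). PLPP3, a phosphatase of lipid phosphates at the cell surface, rose from day 0 to 2 in BF by 1.60 (adjusted p = 8.68e-05) and in IMF by 1.67 (adjusted p = 3.01e-04) and fell from day 4 to 8 by 1.42 and 1.01 (adjusted p = 6.68e-04 and 0.00412). PLPP1 rose in IMF from day 4 to 8 by 2.22 (adjusted p = 0.00110) and over day 0 to 8 by 2.08, and ETNK1 fell there from day 4 to 8 by 1.13. The PLPP1 change from day 4 to 8 differed between depots by 3.60 (adjusted p = 7.78e-04). PCYT2, of phosphatidylethanolamine synthesis, fell in BF over day 0 to 8 by 1.001 (adjusted p = 5.99e-04). Between depots DGKZ and PLPP3 were higher in IMF on day 4 by 1.16 and 1.04 and PLPP1 and PLPP3 on day 8 by 2.20 and 1.44. The day 4 call of PLPP3 was lost without both libraries that stood apart (0.66, adjusted p = 0.0192), and its BF fall from day 4 to 8 was then 1.80. The median difference of each of the 4 lists lay between -0.43 and 0.38 in the 12 comparisons between groups, against -0.07 to 0.07 for all tested genes.

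The genes whose pattern was most like each member were sought among 9473 tested genes with a symbol and a mean of at least 1 FPKM, by Pearson's r of log2(FPKM + 1) over the 24 libraries, which share depots and days. For PCK1 they were CXCL14 (0.98), HSD17B12 (0.97) and LPCAT2 (0.96), and for GPD2 PLA2G4A (0.99), FAM13A (0.98) and PTGS2 (0.98). For GK they were SOAT1, PDE3B and WBP1L (each 0.94), for PCK2 CHAC1 (0.91) and IMPDH1 (0.89), and for LPIN1 SRGAP3 (0.92), TRIB2 (0.90) and RBMS3 (0.88). AGPAT2 was nearest to TMEM61 (0.90), OBSL1 (0.86) and LASP1 (0.85), GPAM to WDR7, MINPP1 and PTP4A1 (each 0.91), DGAT1 to TRAPPC2L (0.83), DIPK1B (0.82) and PHF23 (0.81), and GPD1 to UNKL (0.80), SLC22A17 (0.78) and RSRP1 (0.76). Members themselves were left out of the search.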

How the data were processed

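Polyadenylated RNA of 24 libraries was sequenced by the authors as paired reads on a NovaSeq, aligned with HISAT2 to Sscrofa11.1 and quantified with StringTie (1.3.4d per the submitters' processing notes). The deposited values were FPKM, 1 per gene and library, so the authors had divided by transcript length and mapped fragments before deposition. Whole reads could not be recovered, since in any pair of libraries at most 1.21% of low genes shared nearly the same ratio of values. Intervals for counting error could therefore not be computed. The study's DESeq2 test needs counts and was not run.

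Values were tested as log2(FPKM + 1), a scale that understates the change of low genes. Genes were tested when their FPKM summed to more than 1 over the 24 libraries (16135 of 25462). A linear model of 8 group means (limma 3.58.1, R 4.3.3, trended and robust empirical Bayes) was fitted over the 24 libraries with a common spread per gene, and 12 differences and 4 contrasts of change between depots were taken with Benjamini-Hochberg adjustment over all tested genes. Calls needed an adjusted p under 0.01 and an absolute difference of at least 1, the limits the study used. The fit was also run on simulated data, and the outcome is not given here and is not used as support. No pair of libraries was identical, and replicates correlated at 0.962 to 0.994 across genes.

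The members and the lists were chosen with earlier results of these data known. Named were all 10 members, up to 3 genes per wider list and comparison with the largest absolute difference among those called, and for likeness the 3 genes of highest Pearson's r per member, of which 1 is not reported here. Promoters and primer positions were read from the RefSeq sequence and annotation of Sscrofa11.1. Alternatives changed the pseudocount (0.1), the filter, the scaling, the variance model, the libraries in the fit, and added a replicate block.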

Additional observations from a re-analysis of the deposited data

Results flagged for a closer look

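For 3 contrasts the change differed between the depots, by the interaction term of the limma fit already given in the text, and the values are repeated here with no further test. The change of PCK1 from day 0 to 2 was smaller in IMF than in BF (-7.33, SE 1.10, adjusted p = 5.47e-04), with all 3 BF-2d libraries at 24.5 FPKM or more and all IMF-2d libraries at 0.262 or less. From day 4 to 8 it was larger in IMF (7.85, SE 1.10, adjusted p = 7.19e-05), where PCK1 went from at most 0.344 FPKM to at least 64.5. The change of GPD2 from day 4 to 8 was also larger in IMF (1.63, SE 0.38, adjusted p = 0.00521), although 7 of 12 leave-one-out fits lost that call, and its adjusted p without a filter on low values was 0.0103. Within groups of 3 libraries no test for a single outlying library was made.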

How the results depend on the processing

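Among the alternative values of the called members, 297 kept direction and call, 26 kept direction but lost the call, and 0 changed sign. The counts of members that follow have no share of all tested genes called under the same alternative beside them. They are therefore not read as results about the members. With only the compared groups in the fit, 0 members were called in BF from day 0 to 2 and 0 between depots on day 2. A pseudocount of 0.1 called 1 member (LPIN1) in BF from day 2 to 4. In BF from day 4 to 8, median ratio scaling, quantile normalization and the replicate block each called 1 (PCK2). Without a filter on low values 1 member was called in the contrast from day 4 to 8. Without replicate 3 of BF-2d and of BF-4d together, 3 members were called in BF from day 4 to 8. In that fit 3 were called in the contrast from day 0 to 2 and 4 in that from day 4 to 8. These libraries were chosen after seeing the data, by their PCK1, PCK2 and GK values. Leaving out a single library moved the number called from 0 to 2 in BF from day 2 to 4 and from day 4 to 8, from 0 to 1 in IMF from day 0 to 2, and, in the contrasts of depots, from 1 to 2 from day 0 to 2, from 0 to 1 from day 2 to 4 and from 1 to 4 from day 4 to 8. In BF from day 0 to 2 and in IMF over day 0 to 8 it left at least 2 of 3. The causes were not tested. Deviations from the group means of 84 same-numbered pairs of libraries correlated at -0.454 to 0.457, with 9 pairs above 0.1. Such deviations also hold the spread between cultures, so they cannot settle whether equal numbers mark the same piglet. With the replicate block every member called without it stayed called, PCK2 was added in BF from day 4 to 8 and GK between depots on day 2. The table holds no counts and the depth behind a value is unknown here, which limits the reading of values near 0 (DGAT2, and PCK1 on day 0).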
